A study of Mus musculus with 26 samples.

Results

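The comparison is between cell lines grown from granulocyte-macrophage progenitors (GMP) and kept without doxycycline, and the progenitor they were derived from, sorted directly from bone marrow. Its members are the 3 arrays titled as GMP-derived lines without doxycycline (dox) at 48 h and the 4 arrays of sorted wild-type GMP, 7 of the 26 arrays in all, and every difference below is the line minus the sorted cell. It shows which maturation state the lines hold when the drug is absent. The study profiled immortalized lines of the leukaemia fusion MLL-AF9, grown out from long-term haematopoietic stem cells (LT-HSC) or from GMP, together with the sorted progenitors, on Affymetrix gene arrays.

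All mice and lines were of the C57BL/6 strain. The sorted GMP were wild-type cells taken by flow cytometry from bone marrow, as 4 biological replicates, and saw no culture. The lines without dox are named B6-2, B6-3 and F6-6, with 1 array each, and the cells were harvested from liquid medium. The same 3 lines and a further line, B6-1, were also profiled at 48 h with dox. In such lines dox switches the fusion gene on, so the arrays without dox come from cells that grew as MLL-AF9 lines and then had the drug absent. Whether the 48 h count from adding or from withdrawing the drug, the medium and its cytokines, the passage of each line and the age of the mice were not stated in the labels. The sorted and cultured arrays therefore differ in culture, in immortalization and in the fusion's history at once. These cannot be told apart in the line minus sorted difference. The lines with dox are set beside it because they too were cultured, though the labels do not say that their medium was the same. Values are log2 signals, so differences are log2 ratios. In bulk samples, fewer cells of a type and less RNA per cell cannot be told apart.

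A GMP is a committed bone marrow progenitor that gives rise to neutrophils and monocytes. On the way to a neutrophil, granule proteins are made in a fixed order. Primary granule proteins such as myeloperoxidase and the serine proteases come first, in promyelocytes. Secondary granule proteins such as lactoferrin follow in myelocytes and metamyelocytes and depend on the transcription factor C/EBP-epsilon, and tertiary granule proteins and the receptors of the circulating neutrophil come last. MLL-AF9 joins the N-terminal part of the histone methyltransferase MLL to AF9, a partner in transcription elongation, and holds Hoxa genes, Meis1 and other progenitor genes on, which blocks this sequence.

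Of 19937 genes tested, 4690 (23.5%) differed between the lines without dox and sorted GMP at an adjusted p under 0.05 (limma, Benjamini-Hochberg over all genes), 2163 higher (10.8%) and 2527 lower (12.7%) in the lines. The larger differences leaned upwards: 424 called genes were higher by more than 1 log2 unit and 157 were lower by as much. The arrays of the 2 groups did not overlap for 6606 genes (33.1%). The median difference over all genes was -0.035. Correlations between arrays over all probe sets were 0.987 to 0.991 within sorted GMP, 0.986 to 0.990 within the lines and 0.960 to 0.972 between them. Replicate 2 of sorted GMP stood apart in granule genes: its mean over the 14 secondary granule genes was 7.59, against 6.78 to 6.97 in the other sorted arrays and 9.49 to 9.70 in the lines.

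Genes that mark GMP were high in the sorted arrays. Kit and Cd34 are usually gated on in such a sort, so their level does not check it. Kit, the stem cell factor receptor, measured 8.87 to 9.13 and Cd34 measured 8.90 to 9.14, while Ms4a3, a GMP gene, measured 10.56 to 10.76, against a median of 5.86 over all values. The mean level of the 9 measured B cell genes was 5.07 to 5.21 and that of the 10 T and NK cell genes 4.50 to 4.59, both under that median. Some basophil and eosinophil genes were high in sorted GMP, with means of 9.75 for Mcpt8 and 9.55 for Prg2. The mast cell and basophil list averaged 5.85 to 6.16 there and the eosinophil list 6.32 to 6.85. Sparc, a stromal and megakaryocyte gene, measured 7.36, 7.61, 8.41 and 5.69 in the sorted arrays and 5.54 to 5.70 in the lines. The mean of the 12 stromal and endothelial genes was 5.52 to 5.81 in sorted GMP and 5.32 to 5.40 in the lines; 4 of the 12 were lower in the lines and 1 was higher, and the counts became 2 and 0 without line B6-3.

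The secondary granule genes held the largest differences. Of 14 measured members, 12 were higher in the lines than in sorted GMP and none was lower, with a median difference of 2.23. Ngp, which encodes neutrophilic granule protein, measured 4.92, 8.53, 5.76 and 5.42 in sorted GMP and 11.62, 11.69 and 11.76 in lines B6-2, B6-3 and F6-6. The lines agreed closely and all lay above the sorted arrays, of which replicate 2 was the high one. The difference was 5.53 ± 0.56 (SE; adjusted p = 8.06e-08), and 6.32 without that replicate. The other 3 sorted arrays lay under the median of all values, and no background level was used here, so no fold is given for differences from signals this low. Ltf, the gene of the iron-binding lactoferrin, measured 5.64, 6.58, 5.49 and 5.47 in sorted GMP against 10.36, 10.27 and 10.26 in the lines. Its sorted arrays lay near the median of all probe sets, and its difference was 4.50 ± 0.51 (adjusted p = 4.86e-07). Camp, the cathelicidin antimicrobial peptide, measured 5.42, 6.92, 6.21 and 6.52 in sorted GMP and 10.81, 10.98 and 11.23 in the lines, a difference of 4.74 ± 0.50 (adjusted p = 1.48e-07).

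Lcn2, the siderophore-binding lipocalin, measured 5.73, 6.66, 5.78 and 5.82 in sorted GMP and 9.78, 9.69 and 9.83 in the lines. It was 3.77 ± 0.33 higher (adjusted p = 1.05e-08), with no array of one group reaching the other. Mmp8, the neutrophil collagenase, measured 6.48 to 7.86 in sorted GMP and 10.42 to 11.38 in the lines and was 3.99 ± 0.45 higher (adjusted p = 4.20e-07; 4.29 without replicate 2, its highest sorted array). Chil3, a chitinase-like protein of the granules, was higher by 2.68 and Cd177, a neutrophil surface antigen, by 1.77. The members that did not pass were Hp, the haptoglobin gene, with a mean of 10.1 in sorted GMP and 10.5 in the lines, and Cybb, the catalytic subunit of the phagocyte oxidase, with 10.27 and 11.11 (adjusted p = 0.15).

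The lines with dox were lower in these genes. This comparison shares the dox-free arrays with the one above, and the comparison of lines with dox against sorted GMP shares the sorted arrays, so their values are set side by side only. Ltf measured 5.26 to 5.73 and Lcn2 5.76 to 6.34 in the 4 arrays with dox, inside or near the range of sorted GMP. Ngp measured 8.69 to 9.91 with dox, between the sorted and the dox-free arrays. Between lines without and with dox, where 2179 genes (10.9%) differed, 1033 higher without dox (5.18%) and 1146 lower (5.75%), or 1215 higher and 957 lower when the fit paired the arrays of a line, 12 of the 14 secondary granule genes were higher without dox and none was lower, with a median of 1.94. For 11 of the 14 both calls, against sorted GMP and against the lines with dox, were higher, and over all genes this held for 3.48%. Both calls use the same dox-free arrays, so they are not independent.

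The 250 bases upstream of the annotated start are shown for Ltf, Ngp, Lcn2 and Camp. Cebpe was also higher in the lines, and whether it acts on these genes here was not tested. Sequences are from RefSeq on build GRCm38.p6, 5′ to 3′ along the gene, and capitals mark the letters TTGCNNAA, the core of a C/EBP site, found on either strand. The windows lie at chr9:111019042-111019291 (+ strand) for Ltf, chr9:110419558-110419807 (+ strand) for Ngp, chr2:32387740-32387989 (- strand) for Lcn2 and chr9:109849457-109849706 (- strand) for Camp.
Ltf: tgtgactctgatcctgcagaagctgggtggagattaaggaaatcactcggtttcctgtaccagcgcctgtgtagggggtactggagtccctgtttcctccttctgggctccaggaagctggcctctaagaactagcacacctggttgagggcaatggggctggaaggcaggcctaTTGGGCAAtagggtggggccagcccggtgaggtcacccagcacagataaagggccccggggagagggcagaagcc
Ngp: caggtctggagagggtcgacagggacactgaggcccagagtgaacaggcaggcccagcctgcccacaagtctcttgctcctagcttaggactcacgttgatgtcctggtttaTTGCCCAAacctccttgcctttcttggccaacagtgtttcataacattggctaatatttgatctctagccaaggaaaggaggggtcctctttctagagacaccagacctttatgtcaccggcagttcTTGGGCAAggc
Lcn2: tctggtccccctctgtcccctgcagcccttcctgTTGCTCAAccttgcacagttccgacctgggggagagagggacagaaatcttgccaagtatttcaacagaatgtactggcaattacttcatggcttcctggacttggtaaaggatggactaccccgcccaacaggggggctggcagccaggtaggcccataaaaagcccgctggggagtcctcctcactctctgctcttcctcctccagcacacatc
Camp: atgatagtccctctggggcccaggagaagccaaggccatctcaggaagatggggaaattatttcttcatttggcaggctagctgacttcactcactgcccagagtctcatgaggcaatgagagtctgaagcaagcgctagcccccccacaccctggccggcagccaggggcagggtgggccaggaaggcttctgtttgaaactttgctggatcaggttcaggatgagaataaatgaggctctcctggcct
Ngp held 2 matches, Ltf and Lcn2 held 1 each and Camp held none; the match of Ltf overlaps CCAAT read on the other strand. Over the lists, TTGCNNAA occurred in 4 of 12 secondary granule genes with a sequence, in 6 of 18 tertiary and late genes and in 0 of 10 primary granule genes, against 10.8% of all 27025 genes with one. These counts describe letters in a window, not binding. Of the 9 spellings searched, 3 are given in this text (TTGCNNAA, GAGGAAGT and CCAAT); they were picked with the counts known.

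**Figure D1:**
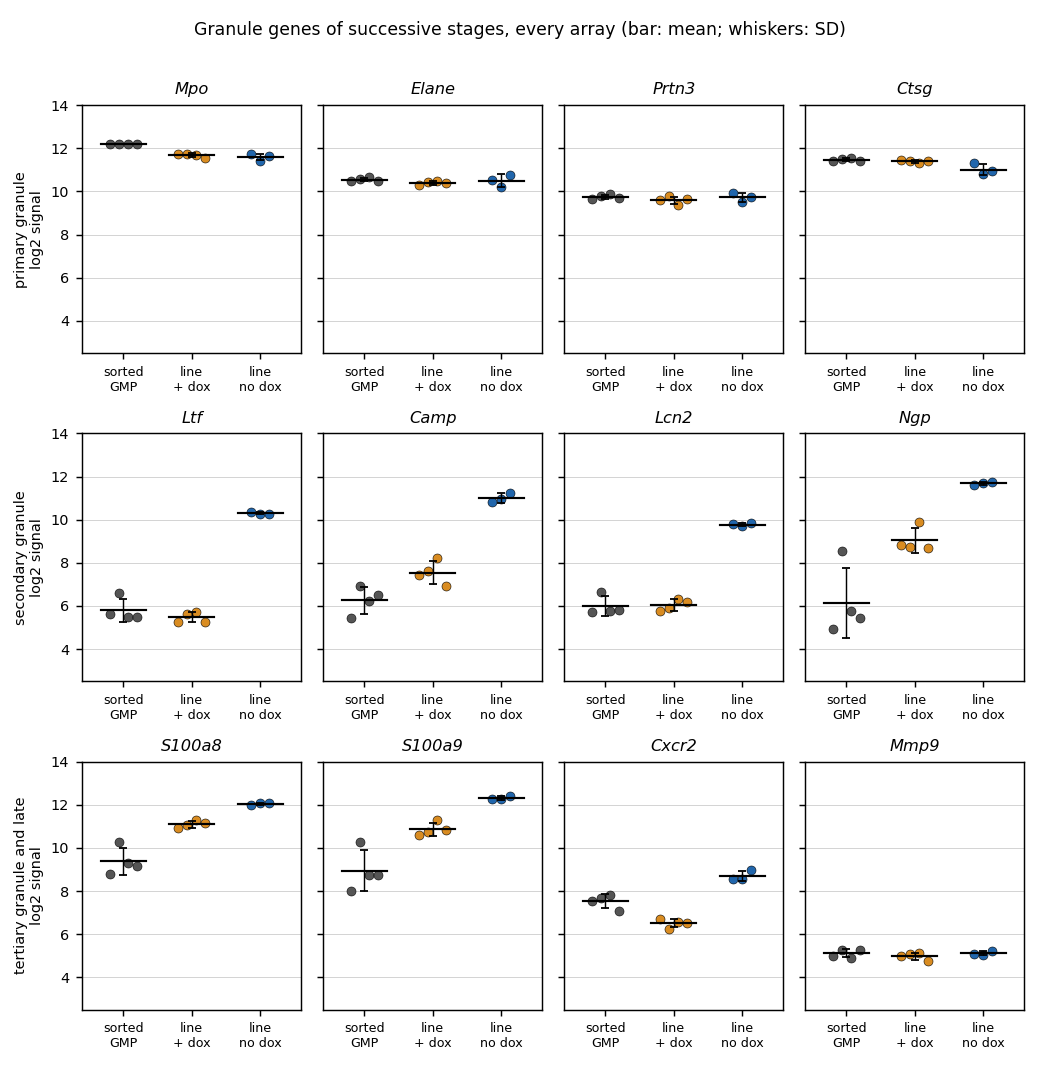
Log2 signal of 12 granule genes (vertical axis) in every array of sorted GMP, lines with dox and lines without dox (horizontal axis); points are arrays, bars are means and whiskers SD. In the primary row the 3 groups lie close together, whereas Ltf reads 10.26 to 10.36 without dox against 5.47 to 6.58 in sorted GMP, and Mmp9 stays near 5.12 in all groups.

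Most primary granule genes, like most of all genes, were not called. Of 12 measured members, 2 were higher and 2 were lower in the lines without dox (1 lower without line B6-3), with a median of -0.05. Over all genes 10.8% were higher and 12.7% lower. Elane, the gene of neutrophil elastase, measured 10.49, 10.59, 10.66 and 10.48 in sorted GMP and 10.54, 10.19 and 10.78 in the lines. The groups overlapped, and the difference was -0.05 ± 0.16 (adjusted p = 0.876). Prtn3, proteinase 3, measured 9.66 to 9.87 in sorted GMP and 9.52 to 9.91 in the lines, also overlapping, with a difference of -0.02 ± 0.15 (adjusted p = 0.955). Mpo, myeloperoxidase, measured 12.20, 12.19, 12.19 and 12.18 in sorted GMP and 11.72, 11.43 and 11.65 in the lines. All lines lay below the sorted arrays, by 0.59 in the fit (-0.59 ± 0.16, adjusted p = 0.00803; -0.50 and adjusted p = 0.0574 without line B6-3). Ctsg, cathepsin G, differed by -0.47 ± 0.17 and was not called (adjusted p = 0.0529). The members that rose were Ctsc, the cathepsin that activates the granule proteases, at 1.38 ± 0.22 (adjusted p = 4.52e-05), and Serpinb1a, an inhibitor of them, at 1.04 ± 0.12 (adjusted p = 6.61e-07). Calr, a chaperone of the endoplasmic reticulum, fell by 0.70 (adjusted p = 6.43e-07).

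The elastase window is shown as the example of a gene that did not pass the test, at chr10:79886062-79886311 (+ strand), with capitals for GAGGAAGT, a form of the site of the ETS factor PU.1.
Elane: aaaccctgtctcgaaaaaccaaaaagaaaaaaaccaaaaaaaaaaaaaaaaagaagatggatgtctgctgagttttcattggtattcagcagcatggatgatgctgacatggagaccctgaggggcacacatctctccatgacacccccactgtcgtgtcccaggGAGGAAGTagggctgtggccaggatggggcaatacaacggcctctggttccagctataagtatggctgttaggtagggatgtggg
GAGGAAGT was found on either strand in 4 of 10 primary granule genes (Mpo, Elane, Prtn3 and Ctsc) and in 2 of 12 secondary granule genes, against 2.79% of all genes with a sequence. Spi1, the gene of PU.1, had means of 8.36 in sorted GMP and 8.49 in the lines without dox (adjusted p = 0.553).

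Tertiary granule and late neutrophil genes were higher in part. Of 22 measured members, 16 were higher in the lines and none was lower, with a median of 1.13. In other fits 1 was lower: with quantile normalization, without dim genes, with only the compared groups, with the replicate block or without line F6-6. With array weights 2 were lower. S100a9, a subunit of calprotectin, measured 8.01, 10.29, 8.73 and 8.74 in sorted GMP and 12.27, 12.27 and 12.40 in the lines. Replicate 2 was again the high sorted array but stayed below the lines, and the difference was 3.37 ± 0.36 (adjusted p = 2.05e-07; 3.82 without replicate 2). S100a8, its partner, was higher by 2.67 ± 0.38 (adjusted p = 1.00e-05; 2.97 without replicate 2). Pglyrp1, a peptidoglycan-binding protein of the granules, measured 7.30 to 7.58 in sorted GMP and 10.13 to 10.54 in the lines, 2.89 ± 0.22 higher (adjusted p = 7.42e-10). Ly6g, the surface antigen used to mark mouse neutrophils, measured 4.46, 5.56, 4.25 and 4.02 in sorted GMP and 7.76, 7.67 and 8.61 in the lines, which is 3.44 ± 0.37 higher (adjusted p = 1.80e-07). All lines lay above every sorted array.

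The genes of the last steps were not at one level. Cxcr2, the chemokine receptor that draws neutrophils out of the marrow, measured 7.52, 7.70, 7.81 and 7.08 in sorted GMP and 8.55, 8.57 and 8.96 in the lines, 1.16 ± 0.32 higher (adjusted p = 0.00897). Mmp9, gelatinase B and the classical tertiary granule protein, measured 4.91 to 5.29 in sorted GMP and 5.05 to 5.23 in the lines, with a difference of 0.01 ± 0.12 (adjusted p = 0.976). Both ranges lie under the median of all probe sets. Retnlg, a late neutrophil gene, differed by 0.28 and was not called. Csf3r, the receptor of G-CSF, had means of 7.45 and 7.17 with all lines below the sorted arrays, and was not called (adjusted p = 0.0603). Il1b passed narrowly at 1.03 ± 0.38 (adjusted p = 0.0496), a call lost under 7 of the 16 alternatives, for example at 0.76 without line B6-3.

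Stefin genes, cysteine protease inhibitors expressed in maturing neutrophils, were among the largest increases and varied between lines. Stfa3 measured 3.62 to 4.23 in sorted GMP and 8.21, 8.97 and 10.58 in B6-2, B6-3 and F6-6, a difference of 5.28 ± 1.01 (adjusted p = 0.00035). Stfa2 measured 3.85 to 4.28 and then 7.89, 7.94 and 9.91, a difference of 4.49 ± 0.74 (adjusted p = 6.10e-05). F6-6 was the highest line for both genes, and among the arrays with dox it was the highest too, at 7.04 for Stfa3 and 6.62 for Stfa2. The stefin genes form a cluster of similar copies, so signal may be shared between them.

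Transcription factors of the granulocyte and monocyte branches moved in both directions, 9 of 21 higher and 6 lower, with a median of 0.10; the 6 became 3 without line F6-6. Cebpe measured 7.18, 7.33, 7.10 and 7.13 in sorted GMP and 8.08, 8.45 and 8.58 in the lines. Every line exceeded every sorted array, by 1.18 ± 0.12 on average (adjusted p = 8.93e-08). Irf8, which directs GMP towards monocytes and dendritic cells, measured 8.65 to 8.86 in sorted GMP and 7.42 to 7.53 in the lines, -1.24 ± 0.18 (adjusted p = 1.04e-05). Gfi1, a repressor needed for neutrophil formation, was 0.37 ± 0.09 higher (adjusted p = 0.00412). Cebpa, the factor that forms the GMP itself, had means of 8.08 and 7.87 and was not called (adjusted p = 0.414). Id2, an inhibitor of E proteins, measured 5.14 to 6.19 in sorted GMP and 8.28, 9.23 and 7.77 in the lines, 2.83 ± 0.36 higher (adjusted p = 2.46e-06), and Id1 was 1.7 ± 0.15 higher (adjusted p = 7.43e-09). Between lines without and with dox 9 of the 21 were higher and none was lower, or 4 higher without line B6-3. With dox Irf8 averaged 7.73 and Gfi1 6.78, and neither was called in that comparison (adjusted p = 0.516 and 0.985). Cebpe averaged 7.55 with dox and was called there (adjusted p = 5.67e-05).

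Of 18 progenitor surface and identity genes, 8 were lower in the lines without dox, 2 were higher and 8 were not called, with a median of -0.37. Against sorted GMP the lines with dox had 9 lower and 1 higher, with a median of -0.29. Between lines without and with dox 3 were lower and 2 higher, with a median of -0.02. These 2 became 5 when the fit paired the arrays of a line. Cd34, the sialomucin used in the GMP gate, measured 9.11, 8.90, 9.14 and 8.99 in sorted GMP and 5.68, 5.53 and 5.8 in the lines. The lines lay under the median of all probe sets, and the difference was -3.36 ± 0.25 (adjusted p = 7.42e-10). In the lines with dox Cd34 measured 7.78, 8.17, 8.41 and 6.61, between the sorted and the dox-free arrays. Kit measured 8.87 to 9.13 in sorted GMP and 7.70, 7.08 and 8.01 in the lines (-1.38 ± 0.16, adjusted p = 8.14e-07). Cd27, a receptor of the TNF family on progenitors, differed by -1.62 ± 0.13 (adjusted p = 3.10e-09) and Flt3, a cytokine receptor of early progenitors, by -1.24 ± 0.27 (adjusted p = 0.00132). With dox Kit averaged 7.73, Cd27 6.38 and Flt3 5.40. Between lines without and with dox Cd27 was called (adjusted p = 0.0412), and Kit and Flt3 were not (adjusted p = 0.784 and 0.304). Ms4a3, which marks GMP and their neutrophil and monocyte progeny, had means of 10.69 and 10.99 and was not called (adjusted p = 0.267). Prom1, a membrane glycoprotein, went the other way at 1.39 ± 0.20 (adjusted p = 8.08e-06). GMP are usually gated on Cd34, Kit and low-affinity Fc receptors, and the labels do not give the gates of this sort. Of the Fc receptor genes, Fcgr2b was 0.76 higher in the lines (called) and Fcgr3 had means of 8.94 and 9.22 (adjusted p = 0.107).

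Targets of the MLL fusion were mostly lower in the lines without dox than in the lines with dox. Of 21 measured targets, 16 were lower without dox than with dox and none was higher (5.75% of all genes were lower), with a median of -0.66. Against sorted GMP the lines with dox had 13 targets higher and 3 lower, where 3943 genes (19.8%) were called, 10.0% higher and 9.76% lower, whereas the lines without dox had 5 higher and 6 lower with a median of -0.07. The 5 became 3 without line B6-2. Meis1, a cofactor of Hox proteins, measured 7.15, 6.83, 7.07 and 7.03 in sorted GMP, 8.93 to 9.33 with dox and 6.81, 6.36 and 6.71 without. Without dox every line lay just below the sorted arrays, a difference of -0.39 ± 0.17 that was not called (adjusted p = 0.103). Hoxa9, a homeobox gene that supports self-renewal, measured 5.94, 5.65, 6.11 and 5.85 in sorted GMP, 7.44 to 7.57 with dox and 6.65, 6.31 and 6.54 without. It lay 0.61 ± 0.09 above sorted GMP without dox (adjusted p = 1.07e-05), and Hoxa5 was 0.86 ± 0.18 above (adjusted p = 0.000936).

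Other targets were lower than in the sorted cell. Bcl2, the survival gene, measured 9.08, 8.87, 9.15 and 8.89 in sorted GMP, 8.28 to 8.48 with dox and 7.07, 6.44 and 6.85 without. The order was the same in all arrays, with the dox-free lines lowest, and the difference from sorted GMP was -2.21 ± 0.10 (adjusted p = 1.33e-13). Mef2c, a factor of lymphoid and myeloid progenitors, measured 8.42 to 8.72 in sorted GMP, 8.71 to 9.12 with dox and 7.32 to 7.41 without, with a difference of -1.18 ± 0.12 (adjusted p = 1.46e-07). Cdk6, a cell cycle kinase of progenitors, differed by -0.88 ± 0.11 (adjusted p = 1.69e-06), and Myb, a progenitor transcription factor, by -0.73. Jmjd1c was not called at -0.04, but the mean of its 2 probe sets gave 0.24. The endogenous genes that form the fusion, Kmt2a and Mllt3, differed by -0.60 ± 0.08 (adjusted p = 2.14e-06) and -0.52 ± 0.12 (adjusted p = 0.00171). No label says whether their probe sets also read the fusion transcript, so they do not check the drug's effect.

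**Figure D2:**
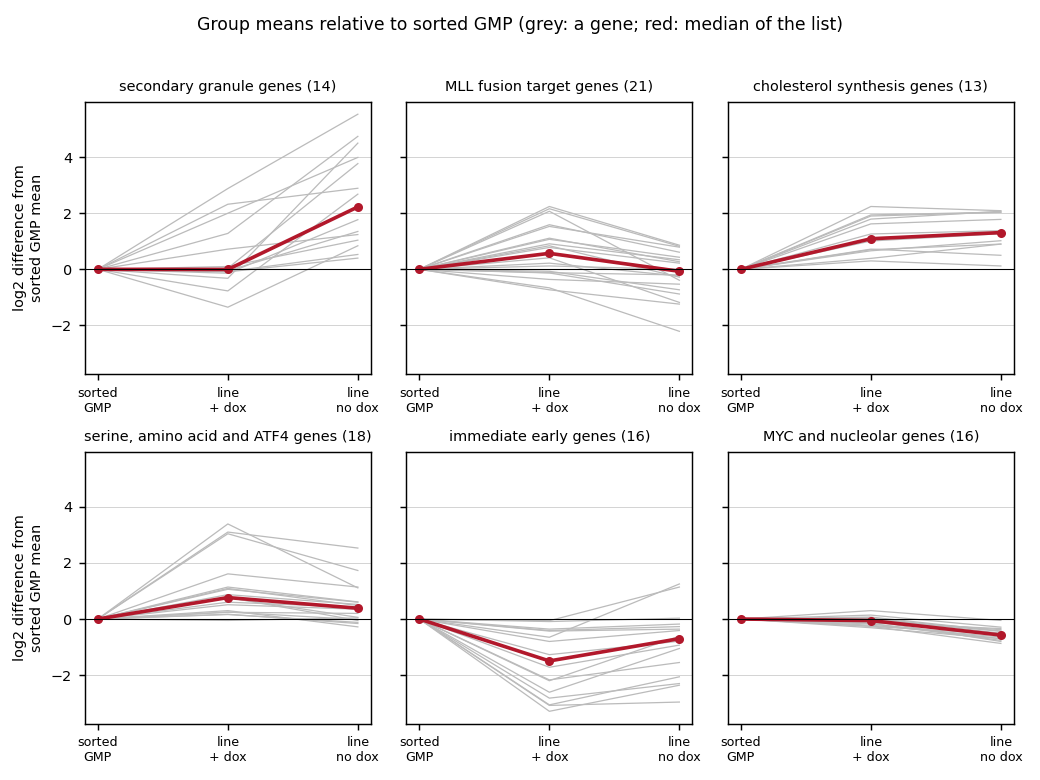
Log2 difference of the group mean from the sorted GMP mean (vertical axis) for lines with dox and without dox (horizontal axis); grey lines are genes of 6 lists and red lines their medians. The median of the 21 MLL targets goes from 0.58 with dox to -0.07 without, and that of the 14 secondary granule genes reaches 2.23 without dox.

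Monocyte and macrophage genes split. Of 29 measured members, 12 were higher in the lines without dox, 5 were lower and the median was 0.23. Msr1, the class A scavenger receptor, measured 5.99, 6.97, 6.26 and 6.09 in sorted GMP and 10.30, 10.84 and 9.06 in the lines, 3.74 ± 0.55 higher (adjusted p = 1.41e-05). Vcan, a matrix proteoglycan made by monocytes, measured 4.79 to 5.70 and then 10.22, 10.88 and 9.43, 4.87 ± 0.45 higher (adjusted p = 1.87e-08). Mrc1, the mannose receptor of macrophages, measured 5.54 to 6.34 in sorted GMP and 8.09, 9.30 and 7.0 in the lines, 2.10 ± 0.45 higher (adjusted p = 0.00119). B6-3 was the highest and F6-6 the lowest of the lines for each of these 3 genes. Further members were higher too, among them Fcgr1 at 1.94, Adgre1 at 1.42 and Ccr2 at 0.98, all called. Other members of the list were lower or level. Ly86, a partner of a Toll-like receptor homologue, fell by 1.39 and Cx3cr1, the fractalkine receptor of patrolling monocytes, by 1.04, both called. Csf1r, the macrophage growth factor receptor, measured 8.48 to 8.53 in sorted GMP and 7.77, 8.53 and 7.49 in the lines and was not called (adjusted p = 0.173). C1qa, a complement gene of tissue macrophages, was lower by 0.48 in the fit (-0.48, called), and Marco and Itgax differed by 0.00 and -0.03.

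Receptors that sense microbes and opsonized particles were higher as a group: 12 of 18 were higher and none was lower, with a median of 0.77. Tlr4, the endotoxin receptor, measured 6.19 to 6.75 in sorted GMP and 8.56, 9.01 and 8.86 in the lines, 2.36 ± 0.17 higher (adjusted p = 2.92e-10). Tlr13, a sensor of bacterial ribosomal RNA, was 2.19 ± 0.39 higher (adjusted p = 0.000139). Fcgr4, a neutrophil and monocyte Fc receptor, measured 4.86 to 5.28 and then 5.88, 6.70 and 7.02, 1.48 ± 0.24 higher (adjusted p = 5.01e-05). Clec4n, the fungal receptor Dectin-2, was among the largest increases of all genes at 4.38 ± 0.39 (adjusted p = 1.33e-08), with 9.05, 10.21 and 7.87 in the lines against 4.43 to 5.14 in sorted GMP.

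Of 19 adhesion and migration genes 8 were higher, 4 were lower and 7 were not called. Itgam, the integrin chain CD11b, measured 6.18, 6.88, 6.37 and 6.08 in sorted GMP and 9.25, 9.68 and 9.18 in the lines. The groups were far apart, by 2.99 ± 0.19 (adjusted p = 5.24e-11), and its partner Itgb2 was higher by 2.09 ± 0.14 (adjusted p = 1.31e-10; 2.24 without sorted replicate 2, the highest sorted array at 7.24). C5ar1, the receptor of the complement fragment C5a, measured 4.79 to 5.42 and then 7.90 to 8.48, 3.16 ± 0.25 higher (adjusted p = 1.26e-09). Ccr1, a chemokine receptor, was 3.42 ± 0.33 higher (adjusted p = 3.63e-08). The called decreases were Cd44 at -0.62, Itga4 at -0.44, Itga6 at -0.37 and Cxcr4, which keeps cells in the marrow, at -0.31. Il1r2, the decoy receptor of interleukin 1 carried by neutrophils, measured 5.46 to 6.20 in sorted GMP and 8.95 to 9.88 in the lines, 3.77 ± 0.27 higher (adjusted p = 2.64e-10). Csf2rb, the shared chain of the GM-CSF, IL-3 and IL-5 receptors, was 1.33 ± 0.19 higher (adjusted p = 8.21e-06).

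Some genes of basophils, mast cells and eosinophils separated the lines from each other. Prg2, the eosinophil major basic protein, measured 9.44, 10.09, 9.34 and 9.33 in sorted GMP and 9.73, 6.27 and 5.18 in B6-2, B6-3 and F6-6. B6-2 lay within the sorted range and the other lines far below it. The fitted difference was -2.49 ± 0.80 (adjusted p = 0.0246), and the call was lost under 7 of the 16 alternatives, for example at -1.55 without line F6-6 (adjusted p = 0.22). Mcpt8, a basophil protease, measured 9.32 to 10.03 in sorted GMP and 10.35, 7.22 and 7.70 in the lines and was not called (adjusted p = 0.0532). Hdc, which makes histamine, measured 7.92 to 8.34 and then 7.95, 5.84 and 6.63 (-1.28 ± 0.36, adjusted p = 0.00925; -0.80 and adjusted p = 0.129 without line B6-3).

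The list means followed the same pattern, but not every member did. Of the eosinophil genes, Ccr3, Il5ra, Alox15 and Siglecf lay below every sorted array in all lines without dox, B6-2 included. Cyp11a1, of the mast cell and basophil list, was 2.01 higher than in sorted GMP. The mean level of the 14 mast cell and basophil genes was 5.85 to 6.16 in sorted GMP, 6.06 in B6-2, 5.23 in B6-3 and 5.27 in F6-6. For the 8 eosinophil genes it was 6.32 to 6.85 in sorted GMP and 6.50, 5.47 and 5.28 in the lines. With dox B6-2 was also the highest line, at 5.76 against 5.09 to 5.16 for the mast cell and basophil list and at 5.8 against 5.17 to 5.38 for the eosinophil list. Prg2 measured 8.51 in B6-2 with dox and 5.35 to 6.04 in the other lines. In the fit 2 of the 14 mast cell and basophil genes were lower and 1 was higher, with 4 lower without line B6-2 and 1 lower without B6-3 or F6-6; 4 of the 8 eosinophil genes were lower (1 with the replicate number as a block) and none higher. These differences between lines rest on 1 array per line and condition.

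**Figure D3:**
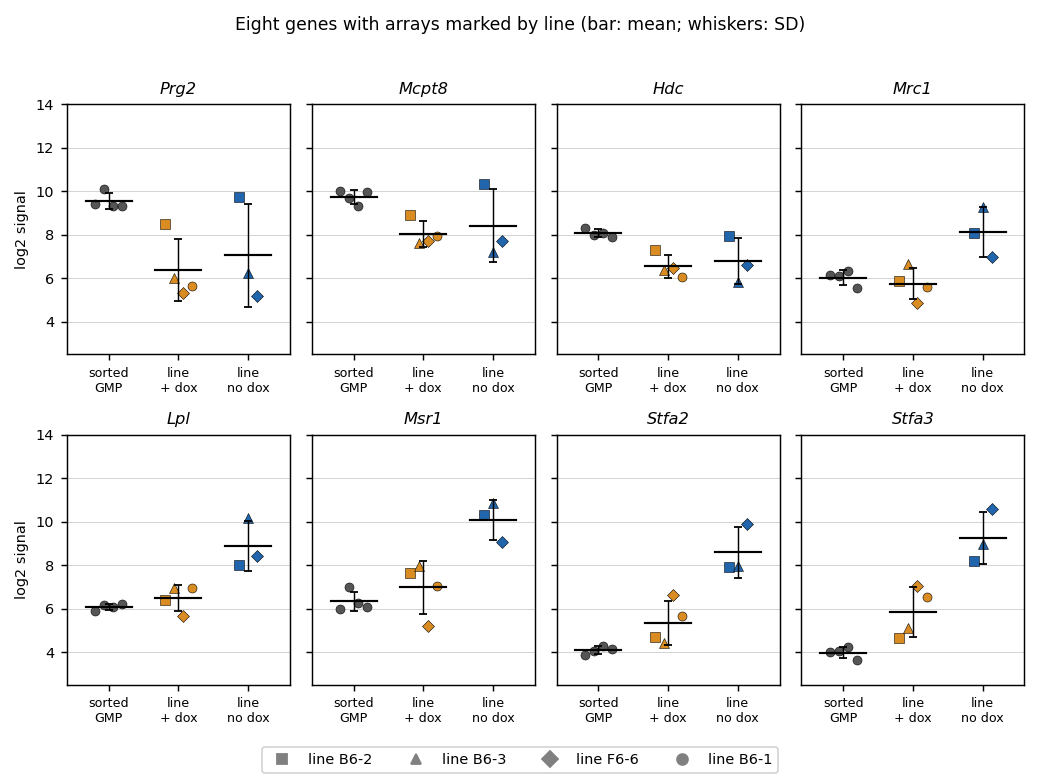
Log2 signal (vertical axis) of 8 genes in sorted GMP, lines with dox and lines without dox, with arrays marked by line; bars are means and whiskers SD. The genes were chosen after their values were seen, and B6-2 reads 9.73 for Prg2 without dox against 6.27 and 5.18 in the other lines, while B6-3 is highest for Mrc1 and F6-6 for Stfa3.

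Cholesterol synthesis genes were higher in the lines at almost every step. Of 13 measured members 12 were higher and none was lower, with a median of 1.31. Cyp51, the lanosterol demethylase, measured 6.67, 6.84, 6.53 and 6.53 in sorted GMP and 8.58, 8.78 and 8.70 in the lines, 2.04 ± 0.09 higher (adjusted p = 6.21e-14). Idi1, which isomerises the isoprenoid building block, was 2.09 ± 0.14 higher (adjusted p = 9.70e-11), and 0.59 higher by its other probe set. Sc5d and Sqle, enzymes of the sterol branch, were 2.07 ± 0.14 and 2.03 ± 0.14 higher (adjusted p = 1.31e-10 and 1.06e-10). Mvk, mevalonate kinase, was not called, with means of 6.30 and 6.42. The lines with dox were high as well: with dox all 13 were higher than in sorted GMP with a median of 1.09, and between the lines without and with dox 1 was higher and none was lower, or 4 higher when the fit paired the arrays of a line and 0 without line B6-3. In the lines of LT-HSC origin, dox-free at 48 h, 7019 genes (35.2%) differed from sorted LT-HSC. These lines had 12 of the 13 higher than the sorted stem cell, with a median of 1.64, where 17.1% of all genes were higher and 18.1% lower.

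The upstream windows of 2 genes of the list are shown because all 10 members with a sequence, and 37.5% of all genes with one, held CCAAT on either strand, marked in capitals. They lie at chr5:4104698-4104947 (- strand) for Cyp51 and chr13:119690101-119690350 (+ strand) for Hmgcs1, the HMG-CoA synthase, which was 1.27 higher in the lines.
Cyp51: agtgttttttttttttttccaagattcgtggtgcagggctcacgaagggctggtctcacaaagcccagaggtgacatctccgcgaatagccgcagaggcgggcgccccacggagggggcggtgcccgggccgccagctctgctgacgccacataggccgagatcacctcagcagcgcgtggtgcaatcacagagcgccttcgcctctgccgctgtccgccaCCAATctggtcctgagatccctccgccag
Hmgcs1: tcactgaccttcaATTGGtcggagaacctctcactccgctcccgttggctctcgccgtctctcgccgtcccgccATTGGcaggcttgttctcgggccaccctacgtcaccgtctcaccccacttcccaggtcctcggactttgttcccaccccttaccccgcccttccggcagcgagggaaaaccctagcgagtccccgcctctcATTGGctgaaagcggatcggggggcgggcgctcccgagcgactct
Cyp51 held 1 match and Hmgcs1 held 3. CCAAT was in 3 of 10 primary granule genes, 5 of 12 secondary granule genes and 8 of 18 tertiary and late genes. It was picked from the 9 spellings with the counts known, so its count is no test of a regulator.

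Other metabolic genes also stood above the sorted cell. Of 19 glycolysis and hypoxia genes 12 were higher and none was lower, with a median of 0.56. With dox 10 of the 19 were higher than in sorted GMP and none was lower, with a median of 0.28. Between lines without and with dox 6 were higher and 1 was lower, with a median of 0.21. Those 6 became 2 without line B6-3, and the 1 became 0 without F6-6. Bnip3, a mitophagy receptor induced by hypoxia, measured 6.51 to 6.83 in sorted GMP and 9.53, 10.46 and 9.90 in the lines, 3.27 ± 0.28 higher (adjusted p = 7.43e-09), and Slc2a1, the glucose transporter GLUT1, was 1.54 ± 0.17 higher (adjusted p = 2.83e-07). Of 18 genes of serine and amino acid supply and the ATF4 response 10 were higher and none was lower, with a median of 0.39. Asns, asparagine synthetase, measured 7.35 to 7.87 in sorted GMP, 10.50 to 10.83 with dox and 10.04 to 10.16 without. The dox-free lines stood below the dox lines and well above sorted GMP (2.53 ± 0.10, adjusted p = 2.95e-14). Between lines without and with dox 12 of these 18 genes were lower and none was higher, and Cth, which makes cysteine, measured 7.98 to 9.27 with dox, 6.20 to 6.64 without and 5.09 to 5.55 in sorted GMP.

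Lipid handling and lysosome genes rose in part. Of 14 lipid uptake and efflux genes 7 were higher and 1 lower. Pparg, the nuclear receptor of lipid storage, measured 5.59 to 6.01 in sorted GMP and 8.15 to 8.66 in the lines (2.58 ± 0.31, adjusted p = 1.02e-06). Lpl, lipoprotein lipase, measured 5.87 to 6.21 and then 8.02, 10.18 and 8.40, highest in B6-3 (2.80 ± 0.33, adjusted p = 8.21e-07). Of 15 lysosome genes 7 were higher and 2 lower (1 lower without line B6-2 or F6-6 or without sorted replicate 2, 3 or 4), with Ctsl, cathepsin L, at 1.55 ± 0.14 (adjusted p = 2.03e-08). Of 8 phagocyte oxidase and killing genes 3 were higher and 1, Mpo, was lower (0 without line B6-3), among them Ncf4 at 1.10 ± 0.12 (adjusted p = 2.68e-07).

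Targets of STAT5, which relays signals of IL-3, GM-CSF and G-CSF, moved in both directions. Socs2, a feedback inhibitor, measured 4.07 to 5.13 in sorted GMP, 7.22 to 7.79 with dox and 7.41, 7.46 and 7.45 without, 2.79 ± 0.19 above sorted GMP (adjusted p = 1.71e-10), though its other probe set gave 0.13. Cish, a further feedback inhibitor, was 1.82 ± 0.15 higher (adjusted p = 4.63e-09), and Pim1, a survival kinase, 1.19 ± 0.13 higher (adjusted p = 1.82e-07). Of the 14 genes of this list 7 were higher and 4 lower. The lower ones included Osm at -0.62, Ccnd1 at -0.53 and Myc at -0.43, and the 4 became 0 without line B6-3, 1 without F6-6 and 2 without B6-2 or any one of sorted replicates 1, 3 and 4.

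Immediate early genes, which respond within minutes to growth factors and stress, went the other way. Of 16 measured members 10 were lower in the lines without dox and 2 higher, with a median of -0.70. Fosb measured 8.81, 8.74, 8.75 and 8.30 in sorted GMP and 5.87, 5.75 and 5.44 in the lines (-2.96 ± 0.17, adjusted p = 7.36e-12). Jun measured 9.36 to 9.52 and then 6.75, 7.73 and 6.80 (-2.36 ± 0.27, adjusted p = 5.46e-07), and Fos 7.95 to 8.04 and then 5.75, 6.32 and 5.02 (-2.30 ± 0.20, adjusted p = 5.44e-09). Dusp1, a phosphatase that ends MAP kinase signals, was lower by 4.16-fold (-2.06 ± 0.21, adjusted p = 6.79e-08). The lines with dox lay lower still, with 13 of 16 members lower than in sorted GMP, none higher and a median of -1.50. Ier3 and Egr2 were the higher members; Egr2 measured 8.22, 9.38 and 6.63 in the lines against 6.61 to 7.10 in sorted GMP, so that the groups overlapped, and its call at 1.25 (adjusted p = 0.0254) was lost under 7 of the 16 alternatives, at 0.60 without line B6-3. Hspa1a, an inducible heat shock protein, fell with this group at -3.09 ± 0.16 (adjusted p = 6.86e-13). The sorted cells passed through flow cytometry and the lines did not, so handling and culture cannot be told apart here.

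Genes of ribosome assembly were lower than in either reference. Of 16 MYC and nucleolar genes 15 were lower than in sorted GMP and 14 were lower than in the lines with dox, none was higher in either comparison, and the medians were -0.57 and -0.47. Nop56, a core protein of small nucleolar particles, measured 10.37, 10.34, 10.47 and 10.23 in sorted GMP, 10.18 to 10.39 with dox and 9.64, 9.15 and 9.87 without. The dox-free lines lay below all other arrays, by -0.80 ± 0.11 against sorted GMP (adjusted p = 3.85e-06). Fbl, fibrillarin, differed by -0.70 ± 0.09 (adjusted p = 2.65e-06) and Mybbp1a, a nucleolar MYB-binding protein, by -0.87 ± 0.10 (adjusted p = 9.06e-07). Ribosomal protein genes themselves did not follow: 1 of 12 (Rps3, -0.17) was lower and none was higher, with a median of 0.00, and the call was lost under 9 of the 16 alternatives, among them leaving out any one line or sorted replicate 1, 2 or 3.

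DNA replication and mitosis genes differed from each other. Of 19 replication genes 13 were lower than in sorted GMP and none was higher, with a median of -0.35. The 13 became 8 without line B6-3. With dox 10 of the 19 were lower than in sorted GMP and none was higher, with a median of -0.23. Between lines without and with dox 2 were lower and none was higher, with a median of -0.10. Those 2 became 0 without line B6-3 and 4 without F6-6. Pola1, the catalytic subunit of polymerase alpha, measured 9.79 to 9.85 in sorted GMP and 9.01, 8.73 and 9.20 in the lines (-0.84 ± 0.10, adjusted p = 1.13e-06), and Mcm6, a subunit of the replicative helicase, differed by -0.51 ± 0.08 (adjusted p = 1.67e-05). B6-3 was the lowest line for both genes. Of 19 mitosis genes 1 was higher and none was lower, with a median of -0.03. None was higher without sorted replicate 1, without line B6-2 or with the replicate block, and 1 was lower without F6-6. Mki67, the proliferation marker, measured 10.24 to 10.42 in sorted GMP and 10.28, 10.18 and 10.26 in the lines (adjusted p = 0.527), and Top2a had means of 10.92 and 10.80 (adjusted p = 0.394). Of 16 cell cycle inhibitors and p53 targets 5 were higher and 1, Btg2, was lower (0 without line F6-6), and 10 were not called, among them Mdm2 at 0.02 and Phlda3 at 0.09. Cdkn1b, an inhibitor of cyclin-dependent kinases, was 0.90 ± 0.17 higher (adjusted p = 0.00035), but its other probe set gave -0.06. Trp53inp1, a stress-induced p53 target, was 1.61 ± 0.16 higher (adjusted p = 7.90e-08).

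**Figure D4:**
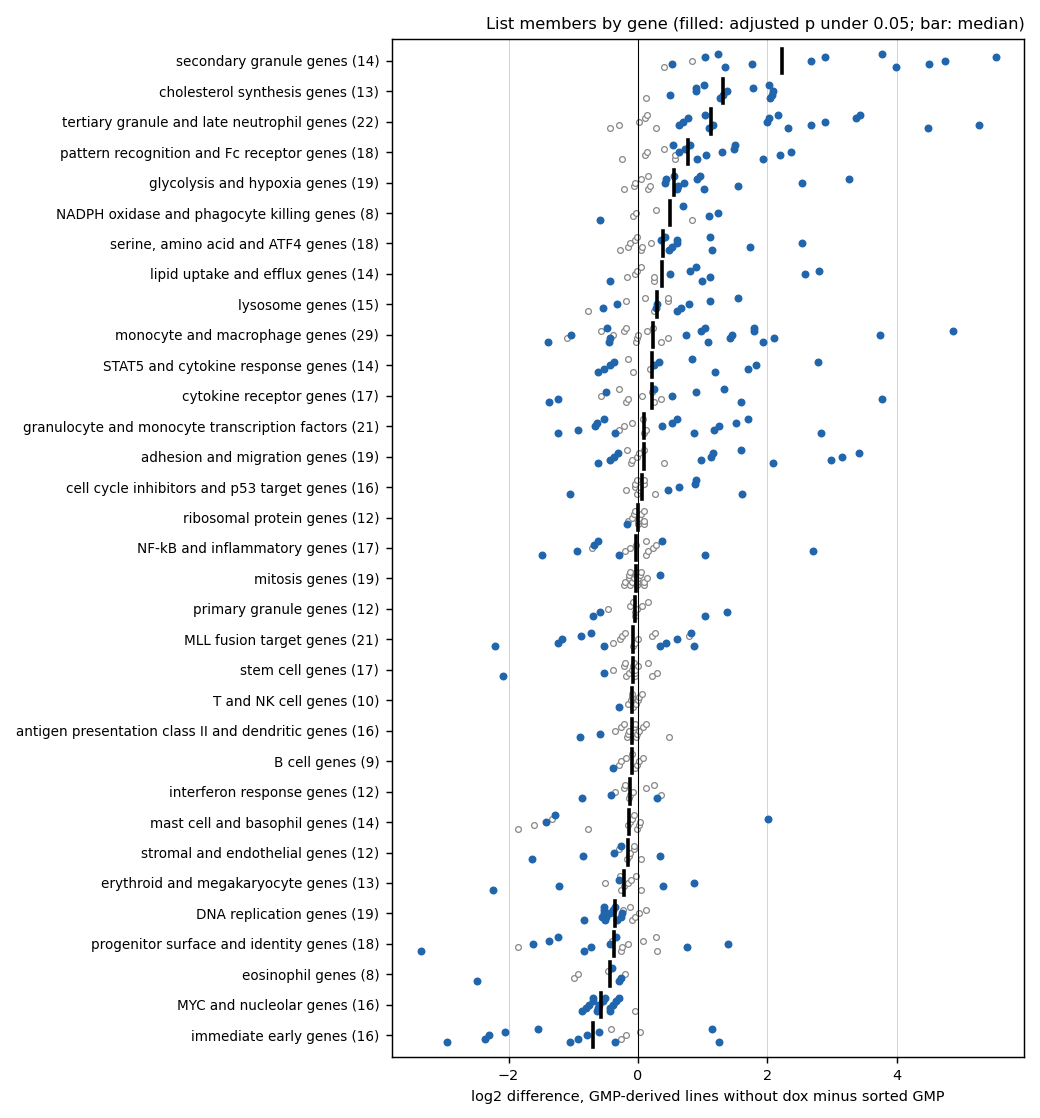
Log2 difference between lines without dox and sorted GMP (horizontal axis) for each measured member of 33 gene lists (rows, ordered by median, with the number of members); filled points were called, open points were not and bars are medians. The secondary granule list lies highest at a median of 2.23 and the immediate early list lowest at -0.70.

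The largest single differences included genes outside the lists. Hpgd, which inactivates prostaglandins, measured 5.00 to 5.76 in sorted GMP, 11.52 to 11.68 with dox and a mean of 10.82 without (5.39 ± 0.79 without dox, adjusted p = 1.42e-05). Myl10, a myosin light chain, measured 5.50 to 6.07, 9.67 to 10.73 and 9.95 to 10.55 in the same order (4.43 ± 0.22, adjusted p = 4.07e-13). Both were high in the lines whether dox was present or not. Il1f9, an interleukin 1 family cytokine now called Il36g, was higher without dox by 4.0 ± 0.32 (adjusted p = 1.67e-09) and Pilra, an inhibitory receptor of myeloid cells, by 3.90 ± 0.37 (adjusted p = 3.09e-08). Among the decreases, the adhesion receptor gene Adgrl4 measured 8.64 to 9.09 in sorted GMP and 5.61, 4.64 and 5.21 in the lines (-3.69 ± 0.31, adjusted p = 3.97e-09). B3gnt5, a glycosyltransferase of glycolipids, differed by -3.36 ± 0.17 (adjusted p = 4.70e-13), Rgs1, a brake on chemokine receptor signalling, by -2.88 ± 0.35 (adjusted p = 1.01e-06) and Dpp4, a cell surface peptidase, by -2.69 ± 0.17 (adjusted p = 3.06e-11). Car1, a carbonic anhydrase of erythroid progenitors, measured 7.58 to 8.25 in sorted GMP and 5.55 to 5.73 in the lines (-2.24 ± 0.29, adjusted p = 2.26e-06).

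The same difference was set against the lines of the other origin. Dox-free lines of LT-HSC origin at 48 h, 3 arrays, were compared with sorted LT-HSC, 4 arrays, and the 2 differences were tested against each other; this interaction was called for 4483 genes (22.5%; 10.2% with the larger value in the GMP origin and 12.3% with the smaller) and for 17 of the 26 genes of a fixed panel. Of the 12 primary granule genes, of which 2 were higher and 2 lower than sorted GMP in the GMP-derived lines, 10 were higher than the sorted stem cell and none was lower in the LT-HSC-derived lines. Elane was 3.95 ± 0.16 higher there (interaction -4.00 ± 0.23, adjusted p = 3.88e-12), Ctsg 5.47 ± 0.17 higher (interaction -5.94 ± 0.24, adjusted p = 1.05e-14) and Mpo 3.27 ± 0.16 higher (interaction -3.86 ± 0.23, adjusted p = 5.08e-12). Of the 14 secondary granule genes, 12 were higher than the sorted cell in the GMP origin and 11 in the LT-HSC origin, none was lower in either, and the interaction was called for 3 with the larger value in the GMP origin and for 3 with the larger value in the LT-HSC origin. For Camp the difference was larger in the GMP-derived lines (4.74 against 2.26, interaction 2.48 ± 0.71, adjusted p = 0.0116). For Ltf, Lcn2 and Ngp the interaction was 1.69, 0.72 and 1.65 and was not called (adjusted p = 0.106, 0.340 and 0.157).

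Cebpe was higher by 1.18 and 1.03 in the 2 origins and its interaction was 0.15 ± 0.17 (adjusted p = 0.649). Cd34 fell in the GMP-derived lines, whereas it was not called in the LT-HSC-derived lines at 0.56 (interaction -3.92 ± 0.36, adjusted p = 1.20e-08). Irf8 was 1.44 ± 0.18 higher than the sorted cell in the LT-HSC-derived lines and lower in the GMP-derived lines (interaction -2.68 ± 0.25, adjusted p = 1.66e-08). Meis1 was 2.67 lower than sorted LT-HSC there (log2 difference -2.67, interaction 2.28 ± 0.24, adjusted p = 1.00e-07), and Hoxa9 was lower at -0.54 there and higher at 0.61 here (interaction 1.15 ± 0.12, adjusted p = 1.53e-07). Each difference is measured against its own sorted cell, so levels matter too: without dox Mpo averaged 11.60 in the GMP-derived and 11.61 in the LT-HSC-derived lines, and Ctsg 11.01 and 11.26.

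**Figure D5:**
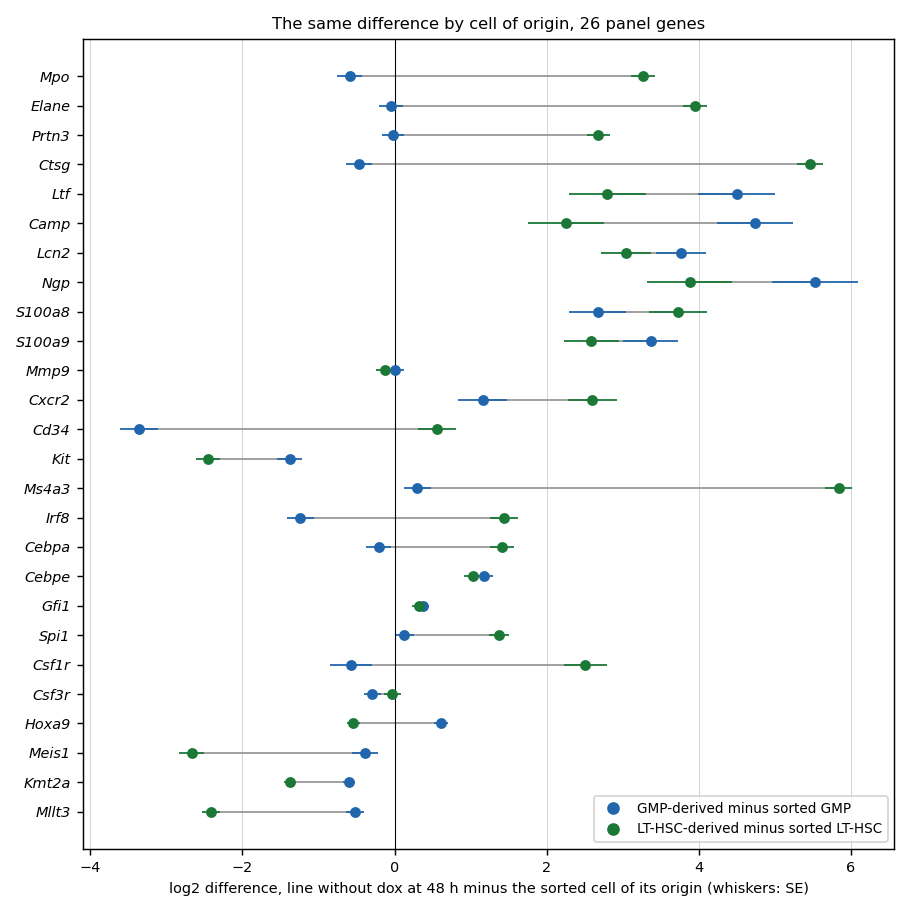
Log2 difference between lines without dox at 48 h and the sorted cell of their origin (horizontal axis) for 26 panel genes (rows), in blue for GMP and in green for LT-HSC; whiskers are SE. Elane lies at -0.05 for GMP and at 3.95 for LT-HSC, while Cebpe lies at 1.18 and 1.03.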

How the data were processed

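The authors deposited 1 log2 signal per probe set and array. Limma and R 3.1.1 are named per the submitters' processing notes; background correction and normalization: not given in the sources used here. Per the labels, total RNA was amplified with the Ovation Pico WTA System before hybridisation. The value table holds 34760 probe sets, of which 21640 carry 1 gene symbol, 1321 several and 11799 none; 19937 genes entered, each by its probe set of highest mean over all 26 arrays (954 genes have more than 1). Array medians were 5.81 to 5.91, so the values were taken as normalized.

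R 4.3.3 and limma 3.58.1 fitted group means to all 26 arrays in 8 groups (lmFit, eBayes, 18 residual degrees of freedom). Tests were 2-sided, and "called" means an adjusted p below 0.05, with Benjamini-Hochberg adjustment across the 19937 genes. The fit was tested on simulated data. Members of 33 lists (492 of 540 symbols measured) are counted without a set test. The comparison, its lists and motifs were chosen with earlier results of these data known. Named genes are up to 15 largest increases and 15 largest decreases among called genes that do not overlap between groups, with the higher mean above the median of all probe sets and without predicted genes, small RNAs, olfactory and vomeronasal receptors and antigen receptor segments; up to 6 called and 2 uncalled members of each list; and a panel of 26 genes. List members outside that rule were chosen after their values were seen. Same-numbered arrays of lines with and without dox are the same lines (deviations correlate at 0.291 to 0.401), whereas sorted GMP and lines share only a number (0.008 to 0.131). Nothing says whether the lines came from separate animals, and the p-values rest on the spread among these arrays, which may be technical and whose number limits the precision.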

Additional observations from a re-analysis of the deposited data

Results flagged for a closer look

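Single arrays stood far from the others of their group, by Dixon's criterion, in 30 of 474 gene and group pairs (237 named genes in sorted GMP and in lines with dox); chance alone gives about 1 in 20. In sorted GMP, replicate 2 was the distant array for Lcn2 (6.66), Ltf (6.58), Lgals3 (7.68), Itgb2 (7.24), Prg2 (10.09), Pdgfrb (5.36) and Cyp11a1 (4.23). Replicate 3 was distant for Prss34 (7.36) and Ms4a6c (10.55), and replicate 4 for Fosb (8.30) and Gadd45a (8.12). With dox, line F6-6 was distant for Ngp (9.91), Ly6g (6.45), Ccr1 (4.12), Ccl9 (8.63), Cebpa (8.21), Cdk6 (10.82), Dach1 (8.73), Gla (8.55), Jmjd1c (10.35), Ms4a6c (7.06) and Ncf4 (7.23). Line B6-1 was distant for Gfi1 (6.68), H2-Aa (4.23), Mitf (6.35), Mybbp1a (8.42) and Pax5 (5.25), line B6-2 for Hoxa9 (7.57) and Itgb2 (7.99), and line B6-3 for Car1 (5.34).

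Without sorted GMP replicate 2 the line minus sorted difference was 6.32 for Ngp, 4.76 for Ltf, 3.99 for Lcn2 and 3.82 for S100a9.

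The line minus sorted difference depended on the origin of the line for 17 of 26 panel genes, by limma's test of the interaction (GMP minus LT-HSC). The interaction was positive for Camp (2.48), Meis1 (2.28), Mllt3 (1.89), Hoxa9 (1.15), Kit (1.07) and Kmt2a (0.77). A positive value can also mean a smaller decrease in the GMP origin, as for Meis1, Mllt3, Kit and Kmt2a. It was negative for Ctsg (-5.94), Ms4a3 (-5.54), Elane (-4.00), Cd34 (-3.92), Mpo (-3.86), Csf1r (-3.08), Prtn3 (-2.70), Irf8 (-2.68), Cebpa (-1.62), Cxcr2 (-1.44) and Spi1 (-1.24).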

How the results depend on the processing

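The count of genes called between the lines without dox and sorted GMP stayed within 1.5 times 4690 under each alternative run, and the share of calls that were higher was 44.5% to 49.8% against 46.1%. Between lines without and with dox, leaving out 1 array gave 1224 to 2115 calls against 2179, 635 to 999 of them higher and 589 to 1116 lower; the lowest counts came without line B6-3. There, without B6-3, the monocyte and macrophage genes called higher went from 17 to 9, the transcription factors from 9 to 4, the pattern recognition and Fc receptors from 12 to 7 and the cytokine receptors from 11 to 5. With the replicate number as a block, 3843 genes were called against sorted GMP, 3540 of them also called without it, and 2172 between lines without and with dox, 1215 higher and 957 lower. Of 167 named calls against sorted GMP, 145 held under each alternative that gave them a value and 157 under the replicate block. The dim filter gave a value for 157 of the 167, and the other 15 alternatives for all of them. Jmjd1c reversed from -0.04 to 0.24 (adjusted p = 0.0125) with the mean of its probe sets. Arrays give no read depth, and genes near the median of all values, such as Mmp9, have little signal to compare.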
